A study of Mus musculus with 6 samples.

Results

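In the livers of the Hom mice, 5 of 10 genes of the endoplasmic reticulum (ER) folding machinery were lower than in the WT livers and 0 were higher (adjusted p under 0.05), while 20.1% of all tested genes were lower and 21.5% higher. The 5 lower genes were Creld2, Dnajb9, Sdf2l1, Hspa5 and Pdia4, which fell to between 32.7% and 60.4% of their WT means. The lectin chaperones Calr and Canx, their partner Pdia3, the chaperone Hsp90b1 and the transcription factor Xbp1 did not pass the test. The 10 genes were taken by symbol, and all 10 were found among the 17975 genes of the expression table and were tested. The count of 5 depends on the scaling of the libraries and on single livers, as given with the values.

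RNA was sequenced from whole liver tissue of 3 WT mice and 3 Hom mice, 1 liver per mouse. The labels give the genotype of the Hom mice as NEK7 hepatocyte knock-out, and by the study's methods they carry NEK7 fl/fl alleles and Alb-Cre, in which the albumin promoter drives Cre recombinase, so that the deletion is aimed at hepatocytes while the other cells of the liver keep the gene. The labels give the control mice as WT, and neither their floxed or Cre alleles nor the age and sex of the sequenced mice is given in the sources used here. NEK7 is a protein kinase known from mitosis and from the NLRP3 inflammasome, and the study asked which genes change in the liver when hepatocytes lack it.

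The ER is the compartment in which secreted and membrane proteins fold, and hepatocytes load it heavily because they make most plasma proteins. Chaperones such as BiP, the product of Hspa5, hold unfolded chains, the lectin chaperones retain glycoproteins until they are folded, and protein disulfide isomerases form and correct disulfide bonds. When unfolded proteins build up, the sensors IRE1, PERK and ATF6 start the unfolded protein response (UPR), in which ATF6 and the spliced form of XBP1 switch on chaperone and degradation genes, and PERK leads to ATF4 and CHOP, the product of Ddit3.

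The estimated counts summed to between 19349418 and 19730236 per liver. Levels are given as CPM, the counts scaled to a common library size after TMM, which corrects for differences in library composition, and always in the order of replicates 1, 2 and 3. The TMM factors ranged from 0.806 to 0.924 (WT) and from 1.09 to 1.23 (Hom). With library size alone in place of TMM, the log2 fold change of the median gene moved from -0.00175 to 0.45. Every direction below is therefore relative to the median gene. Where this scaling turned the sign of one of the 10 genes or of a listed ER gene named below, the turn is given. For genes named from outside these lists, values with this scaling are not given. Of the 13805 genes tested, 4.17% were lower and 13.2% higher in the Hom livers when a log2 change of at least 1 was asked for as well. The targeted gene Nek7 was at 62.9, 69.1 and 63.7 CPM in the WT livers and at 14.5, 18.1 and 16.7 CPM in the Hom livers (log2 fold change -1.99, SE 0.10, adjusted p = 1.59e-04). Hom replicate 1 had 0 counts of the Y-linked genes Ddx3y and Kdm5d, which had at least 243 counts in each of the other 5 livers. It thus read as female and the other 5 as male, so sex was mixed in the Hom group only. The fold changes of the 10 genes are therefore also given without Hom replicate 1, and the part of sex was not tested. Hepatocyte marker genes were lower for 11 of 14 in the Hom livers (median log2 fold change -0.90), and their summed level ranged from 159839 to 190822 CPM in WT and from 65827 to 85863 CPM in Hom livers, though all 14 were expressed in both groups. Of the 14, 6 were lower with library size alone (median -0.46), and without Hom replicate 3, 7 were. Cholangiocyte markers were higher for 7 of 8 (summed level 71.5 to 101 and 622 to 867 CPM) and stellate cell and myofibroblast markers for 5 of 8 (262 to 328 and 663 to 720 CPM). Plasma and B cell markers were higher for 3 of 8 tested, but for 0 without WT replicate 2, 1 without Hom replicate 1 and 5 without WT replicate 1, and most of their summed level (208 to 239 and 319 to 685 CPM) was Sdc1, which did not pass (198 to 211 and 230 to 601 CPM). Macrophage markers were higher for 3 and lower for 1 of 8 (221 to 548 and 373 to 471 CPM), with 1 to 5 higher when a liver was left out (1 without WT replicate 2, WT replicate 3, Hom replicate 2 or Hom replicate 3, and 5 without WT replicate 1), and endothelial markers were higher for 1 and lower for 3 of 8 (220 to 300.1 and 180 to 188 CPM). Pancreatic acinar markers, which report stray pancreas with its ER-rich cells, were tested for 2 of 8 listed genes, of which 1 was lower. This was Cela1 (means of 17.9 and 3.60 CPM), which made most of the summed level (9.21 to 27.6 and 3.17 to 5.22 CPM). The acinar genes Prss2, Ctrb1 and Cel had at most 2 counts in any liver. The part of these cell types in the results below was not tested.

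The promoters of 5 of the 10 genes share a sequence known from genes of the ER stress response. The 10 genes were chosen as ER chaperone and UPR genes, so its presence in them is no independent result. The ER stress element (ERSE), through which ATF6 acts together with the factor NF-Y, reads CCAAT and CCACG with 9 bases between them. It was searched on both strands of the RefSeq promoter windows (GRCm38.p6), which run from 250 bases before to 50 bases after each annotated start, and all 10 genes had 1 window each. Exact ERSE letters were present in the windows of Hspa5, Hsp90b1, Calr, Canx and Creld2, and in 0.119% of all 32851 windows. The stretches below are shown because they carry these letters, 5′ to 3′ on the strand of the gene, with the CCAAT and CCACG parts of each ERSE in capitals (ATTGG and CGTGG where the element lies on the opposite strand).
Hspa5, chr2:34771995-34772073, plus strand: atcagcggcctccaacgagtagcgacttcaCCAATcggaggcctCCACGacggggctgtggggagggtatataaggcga
Hsp90b1, chr10:86705503-86705686, minus strand: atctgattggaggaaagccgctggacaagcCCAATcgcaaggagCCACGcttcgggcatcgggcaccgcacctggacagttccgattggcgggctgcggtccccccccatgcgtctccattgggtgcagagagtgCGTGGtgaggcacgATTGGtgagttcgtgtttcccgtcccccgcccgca
Calr, chr8:84847045-84847123, minus strand: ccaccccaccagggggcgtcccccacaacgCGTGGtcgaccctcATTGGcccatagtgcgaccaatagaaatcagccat
Canx, chr11:50325770-50325848, minus strand: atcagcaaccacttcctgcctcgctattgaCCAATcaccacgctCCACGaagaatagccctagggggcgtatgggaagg
Creld2, chr15:88819490-88819568, plus strand: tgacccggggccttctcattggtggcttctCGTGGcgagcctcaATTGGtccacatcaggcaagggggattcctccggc

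Counted from the start site, the ERSE lay at -65 to -47 in Hspa5, -162 to -144 in Calr, -145 to -127 in Canx and -126 to -108 in Creld2. Hsp90b1 held a pair of them, at -212 to -194 and at -107 to -89. The related ERSE-II (ATTGG, 1 base, CCACG) and the UPR element core TGACGTGG were in 0 of the 10 windows, against 0.0365% and 0.676% of all windows. The CCAAT part alone was in the windows of 9 of the 10 genes and in 37.4% of all windows, and the CCACG part alone in 8 of the 10 and in 32.8% of all. Both counts include the letters inside an ERSE. Of the 5 genes with an ERSE, 2 were lower in the Hom livers, with log2 fold changes from -1.62 to -0.25. Of the 5 without, 3 were lower, with log2 fold changes from -1.22 to 0.16. The letters are a description of these windows and do not show that a factor binds there.

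BiP, GRP94 and the helpers of BiP are the first group, and 3 of its 4 genes were lower. Hspa5 encodes BiP, the HSP70 chaperone of the ER and a regulator of the UPR sensors. It was at 1010, 809 and 1517 CPM in the WT livers and at 782, 485 and 460 CPM in the Hom livers. The groups did not overlap, but the highest Hom liver and the lowest WT liver lay close to each other. The log2 fold change was -0.95 (SE 0.30, adjusted p = 0.0404), and the Hom mean was 51.8% of the WT mean (1112 ± 365 and 575 ± 179 CPM, SD, n = 3 each). In whole tissue, fewer cells of a type and less RNA per cell cannot be told apart. Hspa5 had estimated counts that were not whole in all 6 livers, as RSEM gives where reads match several sequences.

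Dnajb9 encodes ERdj4, a J-domain helper of BiP that also assists degradation and restrains IRE1. It was at 157, 120 and 173 CPM in the WT livers and at 84.7, 54.9 and 53.2 CPM in the Hom livers, with each Hom value below each WT value. Its log2 fold change of -1.22 (SE 0.22, adjusted p = 0.00527) had the smallest adjusted p of the 10 genes. Sdf2l1 encodes an ER protein that works with the BiP helper DNAJB11. It was at 46.9, 33.2 and 72.7 CPM in the WT livers and at 28.4, 18.8 and 25.6 CPM in the Hom livers, again without overlap. Its log2 fold change was -1.07 (SE 0.29, adjusted p = 0.0248).

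Hsp90b1 encodes GRP94, the HSP90 chaperone of the ER, which folds a narrower set of clients such as integrins and Toll-like receptors. It was at 839, 740 and 1070 CPM in the WT livers and at 767, 602 and 619 CPM in the Hom livers. Hom replicate 1 was above WT replicate 2, so the groups overlapped. The log2 fold change was -0.41, with a 95% interval from -0.84 to 0.014 (adjusted p = 0.106).

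The lectin chaperone cycle is the second group, and 0 of its 3 genes passed the test. Calreticulin (Calr) and calnexin (Canx) bind glycoproteins through a sugar tag, and ERp57 (Pdia3) forms disulfide bonds in the proteins they hold. Calr was the most abundant of the 10 genes per length, with means of 889 TPM in the WT and 1128 TPM in the Hom livers. In TPM, Hspa5 followed in the WT livers with 641 ± 196 (SD, n = 3) and Hsp90b1 with 469 ± 89.9, while in the Hom livers Hsp90b1 came before Hspa5 (538 ± 33.8 and 505 ± 119), and these neighbours lay within their spread. In CPM Calr was at 1041, 1136 and 1351 in the WT livers and at 1053, 877 and 972 in the Hom livers, with an overlap of the groups. Its log2 fold change was -0.28, with a 95% interval from -0.64 to 0.080 (adjusted p = 0.179).

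Canx was at 332, 349 and 378 CPM in the WT livers and at 311, 295 and 281 CPM in the Hom livers. Its groups did not overlap, but the difference was small, with a log2 fold change of -0.25 and a 95% interval from -0.49 to -0.016 that is not adjusted for the number of genes (adjusted p = 0.0819). Pdia3 was at 531, 523 and 691 CPM in the WT livers and at 474, 431 and 483 CPM in the Hom livers, also without overlap. Its log2 fold change was -0.33, with a 95% interval from -0.67 to 0.011 (adjusted p = 0.106). For both genes each Hom liver lay under each WT liver, and neither passed the test. Across all tested genes, 27.0% had no overlap with Hom lower and 28.7% with Hom higher, against 7 and 0 of the 10 genes here.

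The other folding enzymes, Pdia4 and Creld2, were both lower. Pdia4 encodes ERp72, a disulfide isomerase. It was at 258, 218 and 362 CPM in the WT livers and at 205, 149 and 153 CPM in the Hom livers. The groups did not overlap, and the log2 fold change was -0.73 (SE 0.22, adjusted p = 0.0331). Creld2 encodes a cysteine-rich ER protein that is secreted in part and is known as an ER stress gene. It was at 77.3, 54.4 and 129 CPM in the WT livers and at 44.1, 20.8 and 20.2 CPM in the Hom livers. This was the largest decrease of the 10 genes in log2 terms (-1.62, SE 0.41, adjusted p = 0.0195), to 32.7% of the WT mean, and it was also the gene with the widest spread within a group.

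Xbp1 encodes the transcription factor that IRE1 activates by removing a short intron from its mRNA. It was at 186, 225 and 246 CPM in the WT livers and at 288, 236 and 209 CPM in the Hom livers, with an overlap of the groups. Its log2 fold change was 0.16, with a 95% interval from -0.21 to 0.53 (adjusted p = 0.445). It was the only one of the 10 genes with a positive log2 fold change under TMM scaling. The counts are per gene, so spliced and unspliced Xbp1 mRNA cannot be told apart.

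**Figure D1:**
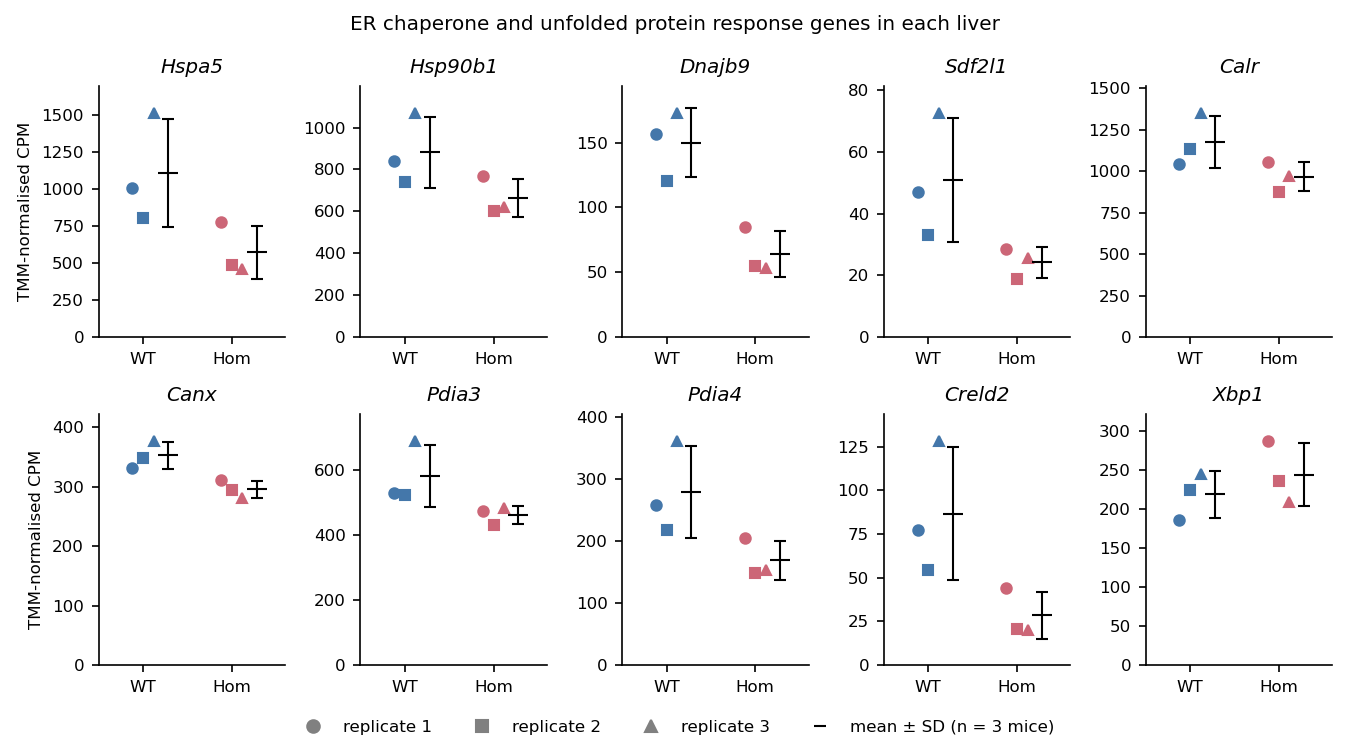
TMM-normalised CPM of the 10 genes (y axes, each from 0) in 3 WT and 3 Hom livers, with a marker shape for each replicate number and the mean ± SD beside the points. Hom values lie below WT values without overlap for 7 genes, WT replicate 3 is the highest WT liver in all 10 panels, and the groups of Xbp1, Calr and Hsp90b1 overlap.

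The 10 genes ranked the livers of a genotype much alike. WT replicate 3 was the highest WT liver for all 10 genes, while it was the highest for 31.9% of the 5796 tested genes with a mean of at least 20 CPM. WT replicate 2 was the lowest for 7 of the 10 genes, and WT replicate 1 for the other 3. Among the Hom livers, replicate 1, which had no counts of the Y-linked genes, was the highest for 9 of the 10 genes (44.7% of the 5796 genes). Hom replicate 3 was the highest for Pdia3. The highest WT liver exceeded the lowest by 2.36 times for Creld2, 2.19 times for Sdf2l1 and 1.87 times for Hspa5, but by 1.14 times for Canx. The coefficient of variation in the WT livers was 43.8% for Creld2, 39.3% for Sdf2l1 and 32.8% for Hspa5, against a median of 8.49% over the 5796 genes. These 3 of the 5 lower genes were the ones with the widest spread among WT mice.

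Single livers decided part of the calls. Without Hom replicate 1, which had the highest Hom value for most of the genes, 5 genes were lower and the log2 fold change was -2.08 for Creld2, -1.47 for Dnajb9, -1.24 for Hspa5, -1.20 for Sdf2l1 and -0.89 for Pdia4. Those of the genes that did not pass were -0.53 for Hsp90b1, -0.35 for Calr, -0.29 for Canx, -0.35 for Pdia3 and 0.024 for Xbp1. Without WT replicate 3, 3 genes were lower (Dnajb9, Sdf2l1 and Creld2), and the log2 fold change of Hspa5 was -0.67. Without Hom replicate 2 or without Hom replicate 3, Dnajb9 alone was lower, with log2 fold changes of -1.12 and -1.11. Those of the other 4 genes stayed negative, at -1.44 and -1.42 for Creld2 and -0.91 and -1.11 for Sdf2l1. Hspa5 was at -0.84 and -0.81 and Pdia4 at -0.64 and -0.66. Dnajb9 was the only one of the 10 genes that passed the test in each of these 6 fits. With the exact two-sided permutation test over the 6 livers, each of the 7 genes without overlap had p = 0.1, below which no comparison of 3 with 3 can go.

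The count also depended on the scaling of the libraries. With library size alone, 2 genes were lower (Dnajb9 at -0.79 and Creld2 at -1.19) and 1 was higher (Xbp1 at 0.61), against 4.65% lower, 47.6% higher and 52.3% either way of all tested genes. Hspa5, Sdf2l1 and Pdia4 kept a negative sign at -0.51, -0.63 and -0.28 but did not pass. Hsp90b1, Calr, Canx and Pdia3 turned to 0.032, 0.17, 0.20 and 0.12, and did not pass either. Over the 10 genes the log2 fold changes had a median of -0.57 with TMM and -0.13 with library size alone, beside -0.00175 and 0.45 for the median of all tested genes. The deposited TPM values, which carry no TMM correction, were higher in all Hom than in all WT livers for Calr, Canx, Pdia3 and Xbp1, and overlapped for the other 6 genes. The share of all genes without overlap in TPM was not computed, so these genes are described without a background.

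**Figure D2:**
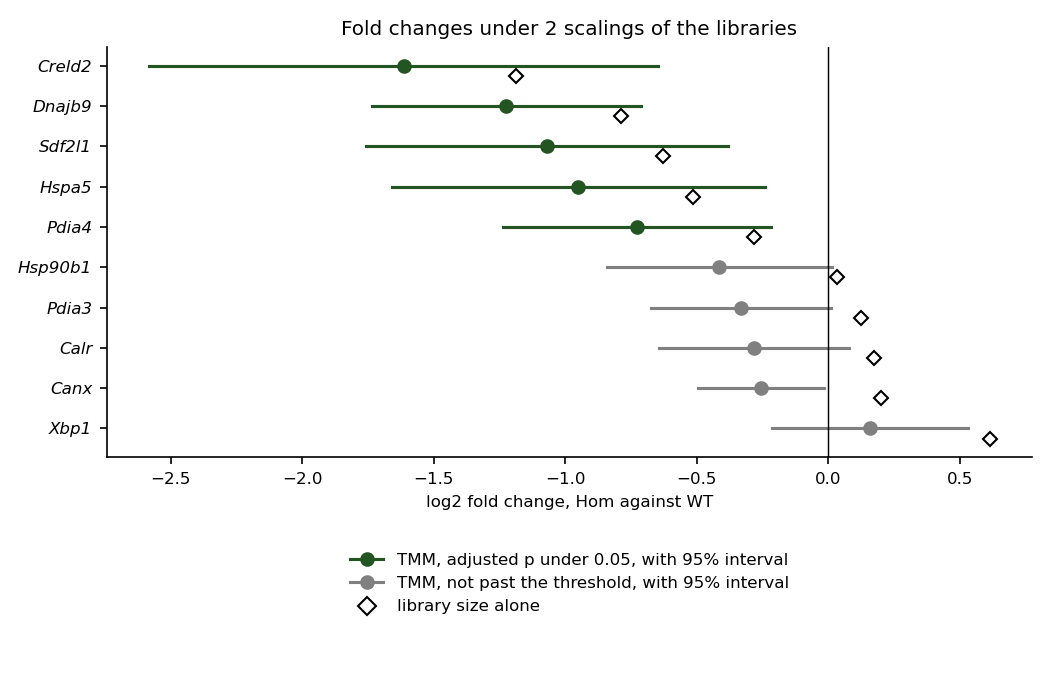
Log2 fold change of Hom against WT livers (x axis) for each of the 10 genes, with TMM scaling (filled points, lines are 95% intervals) and with library size alone (open diamonds). The 5 genes at the top are negative under both scalings, whereas Hsp90b1, Pdia3, Calr and Canx lie on either side of 0 depending on the scaling.

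Ratios between genes of the same liver do not depend on how libraries are scaled, so each gene was also set against Calr, the most abundant one. This reference was chosen after the values were seen, and no test was made. Ratios of all other genes to Calr were not computed, so no background stands beside these groups. The ratio of Dnajb9 to Calr in TPM was 0.157, 0.111 and 0.133 in the WT livers and 0.0838, 0.0652 and 0.0572 in the Hom livers, and the Hom mean was 51.4% of the WT mean. The ratio of Creld2 to Calr was 0.107, 0.0690 and 0.137 in the WT livers and 0.0602, 0.0341 and 0.0300 in the Hom livers. These groups did not overlap, nor did those of Sdf2l1 over Calr, with a Hom mean at 58.4% of the WT mean. The ratios of Hspa5 and Pdia4 to Calr had Hom means at 63.0% and 73.9% of the WT means, with an overlap. Canx and Pdia3 kept nearly the same ratio to Calr in both groups, at 102% and 97.0% of the WT mean.

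Xbp1 had a higher ratio to Calr in the Hom livers. Its ratio to Calr was 0.154, 0.171 and 0.157 in the WT livers and 0.236, 0.232 and 0.185 in the Hom livers, without overlap. Its ratio to Dnajb9, which is known as a target of XBP1, was 0.982, 1.55 and 1.17 in the WT livers and 2.81, 3.56 and 3.24 in the Hom livers. Each Hom value again lay above each WT value.

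**Figure D3:**
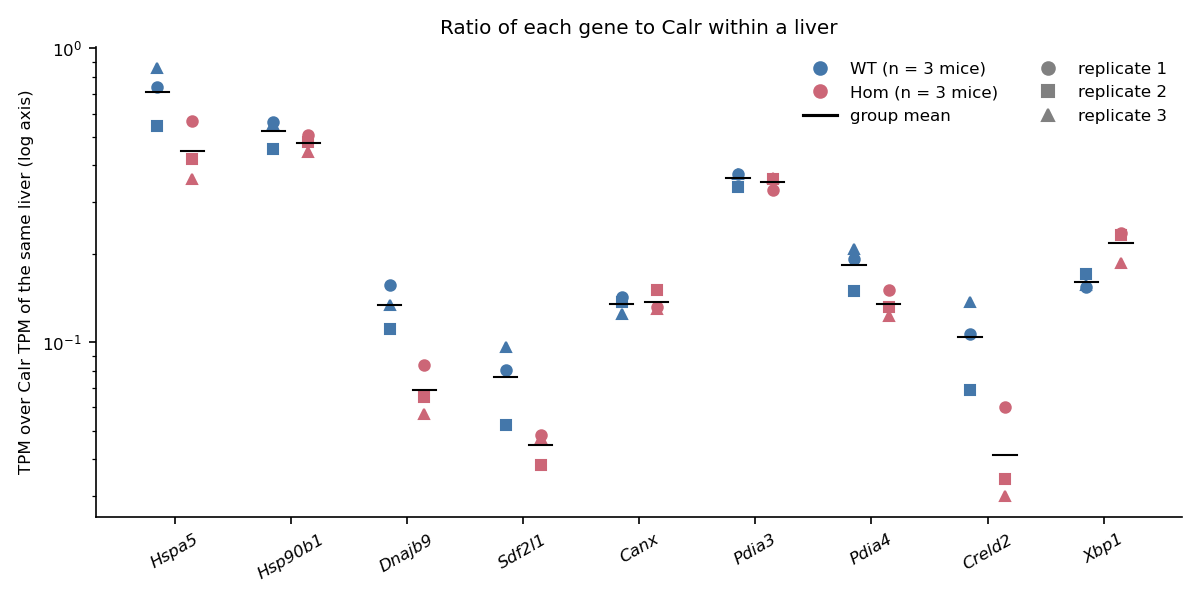
TPM of 9 genes divided by the Calr TPM of the same liver (log y axis) in 3 WT and 3 Hom livers, with lines at the group means. Dnajb9, Sdf2l1 and Creld2 lie lower in all Hom livers, Xbp1 lies higher in all Hom livers, and Canx and Pdia3 overlap.

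The wider ER machinery was described with lists of 156 other genes, of which 154 were tested. In the Hom livers 83 of them were lower and 10 higher, against 20.1% lower and 21.5% higher of all tested genes. With library size alone, 6 were lower and 42 higher (4.65% and 47.6% of all tested genes). Without WT replicate 3, Hom replicate 2 or Hom replicate 3, 48, 39 and 38 were lower, and without Hom replicate 1, 85 were lower. Over these 154 genes the median was -0.34 with TMM and 0.11 with library size alone, under which the medians of all 9 lists were above 0. Of the lower genes named below, Herpud1, Syvn1, Sel1l, Hyou1, Ero1b, Creb3l3, Ttr and Serpina3k also passed as lower with library size alone, and every gene named below as higher with TMM passed as higher. The lists and the 10 genes were chosen with earlier results of these data known.

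Of the 9 lists, that of the degradation of misfolded ER proteins held the gene with the largest decrease. Of 28 tested genes, 18 were lower and 1 was higher (median log2 fold change -0.37). When 1 liver was left out, 10 to 19 were lower, with 10 without Hom replicate 3. Herpud1, which organises the ubiquitin ligase complex of this pathway and is known as a UPR gene, was at 902, 833 and 863 CPM in the WT livers and at 163, 166 and 150 CPM in the Hom livers. The replicates of a group lay close together and the groups far apart (log2 fold change -2.44, SE 0.11, adjusted p = 1.07e-04), and the log2 fold change lay further from 0 than that of any of the 10 genes above. It was -1.99 with library size alone. Syvn1, the ubiquitin ligase HRD1, and Sel1l, its partner, were named after their values were seen. Syvn1 was at 226, 209 and 427 CPM in the WT and 96.4, 78.9 and 81.6 CPM in the Hom livers (-1.75, adjusted p = 0.00373). Sel1l had a log2 fold change of -0.95 (adjusted p = 0.00622). The gene that rose was Rnf139, another ER ubiquitin ligase, by 0.35.

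Among the other ER HSP70, HSP40 and HSP90 genes, 8 of 14 were lower and 1 was higher (median -0.41). When 1 liver was left out, 4 to 8 were lower, with 4 without Hom replicate 2 or Hom replicate 3. Hyou1, an HSP70-like nucleotide exchange factor of BiP, was at 345, 249 and 510 CPM in the WT livers and at 185, 98.2 and 98.0 CPM in the Hom livers (-1.53, SE 0.34, adjusted p = 0.0125). WT replicate 3 was again the highest and WT replicate 2 the lowest of the WT livers. Cnpy3, a helper of GRP94, had the smallest adjusted p among the lower genes of this list (-0.63, adjusted p = 0.00144). Dnajc10, a J-domain disulfide reductase, rose (0.79, adjusted p = 0.0045).

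Of 20 tested disulfide isomerases and oxidases, 11 were lower and 2 higher (median -0.34). When 1 liver was left out, 4 to 10 were lower, with 4 without Hom replicate 2 or Hom replicate 3. Ero1b, an oxidase that recharges the isomerases, was at 116, 96.5 and 146 CPM in the WT livers and at 45.0, 47.2 and 44.8 CPM in the Hom livers (-1.39, SE 0.15, adjusted p = 9.72e-04). Its paralog Ero1a, named after its value was seen, had a log2 fold change of 0.20 (adjusted p = 0.425). Txndc16 rose by 1.10 from a mean of 2.94 CPM. Pdia2 and Erp27 had too few counts to be tested.

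Glycan trimming and cargo receptors had 6 lower and 0 higher of 10 genes (median -0.40). When 1 liver was left out, 2 to 7 were lower, with 2 without Hom replicate 2 or Hom replicate 3. Ganab, the catalytic subunit of glucosidase II, which creates the sugar tag read by calnexin and calreticulin, had a log2 fold change of -0.50 (adjusted p = 0.00481), and Mogs, glucosidase I, one of -0.67 (adjusted p = 0.00696). Of 11 genes of the oligosaccharyltransferase, which attaches the glycans, 5 were lower and 1 higher (median -0.30). When 1 liver was left out, 0 to 4 were lower, with 0 without Hom replicate 2 or Hom replicate 3. Magt1 was the lowest at -0.70, and Tusc3, its paralog, was the one that rose, by 0.63.

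The ER prolyl isomerases had calls in both directions, with 3 higher and 2 lower of 8 genes (median 0.25). Fkbp2 and Ppib, which turn proline bonds in secreted proteins, were lower (-0.56, adjusted p = 0.00314, and -0.63, adjusted p = 0.00709). Fkbp10, known as a collagen chaperone, rose by 1.68 from a mean of 1.55 CPM.

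Genes of import into the ER and of export from it were also lower in part. Of 23 genes of the translocon, the signal peptidase and the signal recognition particle, 14 were lower and 0 higher (median -0.39). Among the lower ones were Sec61a1, the channel subunit (-0.63, adjusted p = 0.0318), and Ssr4 (-0.58, adjusted p = 0.00652). Leaving out 1 liver gave 5 to 15 lower genes of these 23, with 5 without Hom replicate 2. Of 22 genes of COPII export and KDEL retrieval, 11 were lower and 1 was higher (median -0.34). Leaving out 1 liver gave 3 to 13 lower genes of these 22, with 3 without Hom replicate 2 and 4 without Hom replicate 3 or WT replicate 3. Sar1b, the GTPase that starts the COPII coat, and the coat subunit Sec23b were lower (-0.71 and -0.87). The KDEL receptor gene Kdelr3, which returns chaperones from the Golgi, rose by 2.82 but only to a mean of 1.88 CPM.

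Of 18 UPR sensors and transducers, 8 were lower and 1 was higher (median -0.27). The genes of all 3 sensors were lower in the Hom livers with TMM scaling. Ern1, which encodes IRE1, was at 41.3, 47.3 and 48.4 CPM in the WT livers and at 29.7, 31.0 and 29.7 CPM in the Hom livers (-0.60, SE 0.08, adjusted p = 0.00232). Eif2ak3, which encodes PERK, and Atf6 had log2 fold changes of -0.48 (adjusted p = 0.00896) and -0.42 (adjusted p = 0.0115). With library size alone these were -0.14 for Ern1, -0.029 for Eif2ak3 and 0.031 for Atf6, and none of the 3 passed. The sensors themselves act as proteins, and their activity was not measured.

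Downstream of PERK, Atf4 and Ddit3 were lower (-0.67, adjusted p = 0.0122, and -0.68, adjusted p = 0.0386), and both lost the call with library size alone (-0.22 and -0.24). Of 12 targets of this branch, 2 were lower and 2 higher, and the sign of their median was not stable, at -0.31 with TMM, 0.13 with library size alone, -0.0042 with the replicate block and 0.46 without WT replicate 3. Chac1, a glutathione-degrading enzyme, was lower (-1.61, adjusted p = 0.0199) from a mean of 4.99 CPM. Atf3, a stress-induced transcription factor, rose from 2.01, 1.41 and 0.614 CPM in the WT livers to 10.1, 9.44 and 8.10 CPM in the Hom livers (2.76, SE 0.37, adjusted p = 0.00187). Creb3l3, a liver transcription factor of the ER membrane that is cleaved like ATF6, was at 258, 303 and 323 CPM in the WT livers and at 171, 160 and 161 CPM in the Hom livers (-0.84, adjusted p = 0.00179). Bak1, a mitochondrial and ER cell death gene that binds IRE1, rose (0.90, adjusted p = 3.69e-04).

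The cargo of the hepatocyte ER was described with 25 secreted hepatocyte proteins, of which 12 were lower and 2 higher (median -0.33). The counts were 7 lower and 4 higher with library size alone (median 0.13), and without Hom replicate 3, 6 were lower and 0 higher, and without WT replicate 2 or WT replicate 3, 8 were lower and 0 higher. Without Hom replicate 2, 8 were lower and 1 was higher. Ttr, transthyretin, fell from a mean of 7049.8 to 1950.1 CPM (-1.85, adjusted p = 4.86e-04) and Serpina3k from 9877 to 2397 CPM (-2.04, adjusted p = 0.00153). The acute-phase genes C3 and Hp rose (0.89, adjusted p = 0.0293, and 1.23, adjusted p = 0.0483).

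**Figure D4:**
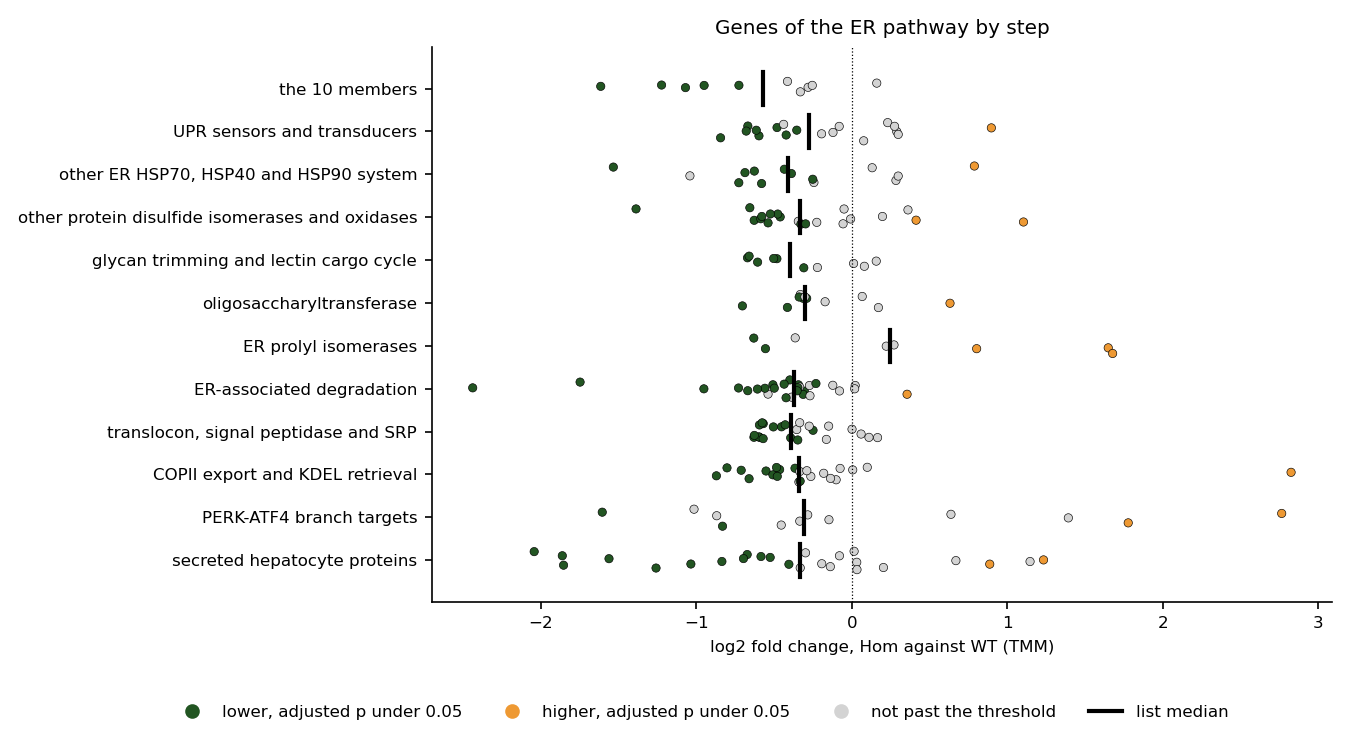
Log2 fold change of Hom against WT livers (TMM scaling, x axis) for each tested gene of the 10 genes and of the pathway lists, with a line at each median. Green points were lower, orange points were higher and grey points did not pass, and the medians lie below 0 except that of the prolyl isomerases, whereas with library size alone those of the pathway lists lie above 0.

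The genes most like the 10 across the 6 livers were found by the Pearson correlation of their log2 CPM with the mean standardised log2 CPM of the 10 genes. They were Timm8b (r = 0.996), Bud31 (0.995), Dnaja1 (0.992), Mrpl51 (0.990) and Krtcap2 (0.989). The points share the 6 libraries and their scaling, and the values describe these livers. Dnaja1, a cytosolic J-domain partner of HSP70, was at 192, 180 and 255 CPM in the WT livers and at 183, 150 and 148 CPM in the Hom livers (-0.39, adjusted p = 0.0908). Its highest WT liver was replicate 3 and its highest Hom liver replicate 1, as for most of the 10 genes. Of these 5 genes, Mrpl51 (-0.35, adjusted p = 0.0322) and Krtcap2, an oligosaccharyltransferase subunit (-0.41, adjusted p = 0.0421), passed the test. Krtcap2 turned to 0.034 with library size alone and did not pass.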

How the data were processed

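RNA of 3 WT and 3 Hom livers was sequenced as total RNA on the DNBSEQ platform. The submitters' processing notes name HISAT2 2.0.4, Bowtie2 2.2.5 and RSEM 1.2.12 and the mouse build mm9. The authors deposited estimated counts per gene (expected counts, as RSEM makes them from aligned reads), and TPM and FPKM scaled by length and depth, for each liver. FPKM was used only to derive gene lengths for the gene length correction. The deposited group means, whose WT and Hom names were found to be crossed for all 17975 genes (checked on the counts), were not used. The expected counts were rounded and tested with edgeR 4.0.16 (R 4.3.3) by the quasi-likelihood test after filterByExpr and TMM scaling, with Benjamini-Hochberg adjustment over 13805 genes and a threshold of 0.05, as the study set with no minimum fold change. Its own test is not named in the sources used here. The totals of 19349418 to 19730236 per liver limit the precision of low genes, and each sample is the liver of a separate mouse. DESeq2 1.42.0, other scalings, filters, a replicate block, a gene length correction and leaving out each liver were alternatives.

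The genes and lists were chosen with earlier results of these data known. Named genes were Nek7, the 10 genes, the UPR sensors with Atf4 and Ddit3, the called gene of each pathway list with the smallest adjusted p and that with the largest change in each direction (mean of at least 1 CPM), and the 5 genes most correlated with the 10. Promoter windows came from RefSeq (GRCm38.p6) by NCBI gene ID. Protein sequences were not analysed here. The scripts were tested on simulated data.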

Additional observations from a re-analysis of the deposited data

How the results depend on the processing

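The 10 genes were compared with the main test in 130 gene and setting combinations, of which 105 kept both direction and side of the threshold, 17 lost the call, 4 gained it and 4 reversed. With library size alone the reversed log2 fold changes were 0.032 for Hsp90b1, 0.17 for Calr, 0.20 for Canx and 0.12 for Pdia3. Of the other listed ER genes named in the text, Atf6 (0.031), Krtcap2 (0.034) and Dnajc3 (0.010) reversed. Under this scaling 2 of the 10 genes were lower and 1 was higher (median -0.13), 6 of the 154 other ER genes were lower and 42 higher, and 642 of all genes were lower and 6574 higher, against 2780 and 2974 with TMM. The scaling was the only setting changed there. With upper-quartile factors 3 of the 10 genes were lower, with DESeq2 7 and with the length correction 6. With a minimum log2 fold change of 1, 3 of the 10 genes were lower, and over all genes 575 were lower and 1825 higher. Leaving out 1 liver gave 1 to 5 lower genes of the 10, 38 to 85 of the other ER genes, and 1767 to 2750 lower and 1986 to 3057 higher over all genes. Hom replicate 2 and Hom replicate 3 (1 each) and WT replicate 3 (3) moved the count of 5 the most, and the cause was not tested. Same-numbered livers came from different mice, their deviations correlated at -0.109, -0.0563 and -0.0494, and 0 of 6 correlated best with their own number, so the numbers did not pair them. With the replicate block 4 of the 10 genes (without Hspa5), 61 of the other ER genes and 2214 of all genes were lower, and 8 and 2383 were higher. Each of the 10 genes had at least 455 counts in each liver, so precision was limited by the spread among 3 mice a group more than by depth.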

Other observations

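The ERSE letters were also found in the promoter windows of 18 other genes of the expression table, of which 14 were tested. Of these, 7 were lower and 2 were higher in the Hom livers (median -0.46 on the log2 scale), against 20.1% lower and 21.5% higher of all tested genes. The lower ones included ER genes, namely Syvn1 (-1.75), Ero1b (-1.39), Pdia6, a disulfide isomerase (-0.48), and Dnajc3, a BiP helper that restrains PERK (-0.43). These genes and Derl3 are also in the ER lists above, so they are no separate result. Syvn1 and Ero1b stayed lower with library size alone, whereas Pdia6 (-0.018) and Dnajc3 (0.010) did not pass, and Dnajc3 turned sign. Alg12, a mannosyltransferase of the glycan precursor, was lower as well (-0.74), as were Pan2 (-0.37) and Hnrnpa3 (-0.40), which act on RNA. Adcy3 (1.17) and Spats2l (2.68) were higher. Derl3, a degradation factor of the ER membrane, had a log2 fold change of -0.54 and did not pass (adjusted p = 0.382). The letters are no evidence of binding, and these genes were listed after the values of the 10 genes were known.

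Manf, a secreted ER stress factor that binds BiP, was named after its values were seen. It was at 176, 122 and 258 CPM in WT replicates 1, 2 and 3 and at 137, 68.6 and 64.5 CPM in Hom replicates 1, 2 and 3. Hom replicate 1 lay above WT replicate 2, so the groups overlapped. Its log2 fold change, -1.04, missed the threshold (adjusted p = 0.0585).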
